A study of Mus musculus with 18 samples.

Results

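The genes described here are 10 secreted ligands and antagonists of the activin and TGF-beta family: Inhba, Inhbb, Fst, Fstl1, Tgfb1, Tgfb2, Tgfb3, Gdf10, Bmp4 and Bmp6. They were taken by name from a deposited table of 43629 gene IDs, and all 10 were present in it. Of these, 9 had enough counts to be tested and Bmp4 did not. Inhba, Tgfb3 and Gdf10 were chosen by their measured differences between the groups, so their values by group are a description. Fits and calls by group are printed for them below, and these are no support for a difference.

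Transcripts were counted by RNA sequencing in cultures grown from mouse cortex, in 3 groups of 6 libraries. All groups were transduced with lentivirus after 7 days in vitro and collected 10 days later. The mSc group carried the fluorescent protein mScarlet as a control, the Psmb5 group a standard catalytic subunit of the proteasome, and the Psmb8 group the immunoproteasome subunit that replaces it. Libraries held 15337511 to 21074229 counts, and the groups share replicate numbers 1 to 6. One protocol text names an Ifng construct for all samples, which differs from the treatment given for each sample. Age, strain, promoter and the number of animals are not given, and nothing says that replicates are separate animals or cultures, so p-values measure the spread between libraries, which may be technical. Psmb5 averaged 42.9 CPM (CPM are counts in proportion to the scaled total of their library) in mSc, 451 in Psmb5 and 48.3 in Psmb8 libraries, and Psmb8 averaged 6.28, 5.03 and 887 CPM, which matches the labels. Neuronal markers (6 genes) summed to 3207 to 4119 CPM. Astrocyte markers (9 genes) were also present, at 4548 CPM on average in the libraries numbered 1 and between 1536 and 1780 CPM in those of the other numbers. Interferon-stimulated genes (10 genes) averaged 102 CPM in number 3 and 301 CPM in number 6, against 16.6 to 29.1 CPM in the other numbers. Microglial markers (8 genes) summed to 17.1 to 38.2 CPM, most of it Cd68 (14.7 to 36.5 CPM, 8338 counts over the 18 libraries), with 443 counts of Aif1 and 1 to 77 counts of each of the other 6 genes, Tmem119 lowest. Vascular and fibroblast markers (9 genes) summed to 13.7 to 54.2 CPM, led by Dcn (6.63 to 20.7 CPM) and Pdgfrb (2.08 to 19.5), with 749 counts of Rgs5 and 0 of the endothelial gene Cldn5 over the 18 libraries.

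Ligands of this family are dimers that bring together a type II and a type I serine/threonine kinase receptor on the target cell. Activins and TGF-betas then pass the signal to SMAD2 and SMAD3, and BMPs to SMAD1, SMAD5 and SMAD9, while follistatin and related proteins bind ligands outside the cell. In cortical neurons the activin subunit gene Inhba is known as a gene induced by electrical activity, and TGF-betas and BMPs act between neurons and glia.

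The 250 bases before the start site are shown for 3 genes on which the values below turn: Inhba and Gdf10, singled out for their values by construct, and Tgfb2, which with Inhba differed most between replicate numbers. RefSeq's promoter table for GRCm38.p6 held 8 of the 10 genes. Fst and Tgfb3 were not matched. Both strands were searched for the cAMP response element TGACGTCA, its shorter core TGACG, the AP-1 site TGANTCA, the SMAD box CAGAC, the GC-rich SMAD motif GGCGC and the TATA box TATAAA. The core lies within the full element, and capitals mark every match on either strand.
Inhba: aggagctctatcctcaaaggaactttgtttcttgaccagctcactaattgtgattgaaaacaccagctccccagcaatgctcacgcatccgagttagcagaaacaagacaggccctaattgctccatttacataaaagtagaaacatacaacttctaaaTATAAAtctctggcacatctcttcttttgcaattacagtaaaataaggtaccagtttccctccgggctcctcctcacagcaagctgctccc
Tgfb2: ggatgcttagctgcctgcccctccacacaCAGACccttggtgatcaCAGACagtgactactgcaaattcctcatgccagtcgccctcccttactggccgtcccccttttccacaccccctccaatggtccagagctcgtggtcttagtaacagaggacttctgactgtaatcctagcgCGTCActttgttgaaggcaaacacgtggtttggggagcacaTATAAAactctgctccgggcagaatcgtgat
Gdf10: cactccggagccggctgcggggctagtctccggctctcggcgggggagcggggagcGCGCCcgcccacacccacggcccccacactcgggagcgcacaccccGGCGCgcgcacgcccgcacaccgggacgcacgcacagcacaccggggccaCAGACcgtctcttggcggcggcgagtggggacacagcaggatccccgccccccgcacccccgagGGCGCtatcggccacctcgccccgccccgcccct
The Inhba window (chr13:16011601-16011850, plus strand) is 43.2% G and C, below the median of 52.4% over all 32851 promoters, and its one match is a TATA box at -91 from the start. The Tgfb2 window (chr1:186705990-186706239, minus strand) is 53.6% G and C and holds a TATA box at -31, 1 match to TGACG at -72 and 2 to CAGAC. The Gdf10 window (chr14:33923337-33923586, plus strand) is 78.8% G and C, with 1 CAGAC at -98 and 3 matches to GGCGC. Such matches are common: TATAAA occurs in 12.4% of all promoters of this length, TGACG in 17.8%, CAGAC in 42.2% and GGCGC in 32.0%. TGACGTCA occurs in 1.55% and TGANTCA in 6.75%, and neither was found in these 3 windows. A match is a stretch of letters and not a measured binding site.

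Inhba, which encodes the subunit of activin A (ENSMUSG00000041324, chr13:16011851-16031621, plus strand, GRCm38), was higher in Psmb5 than in mSc cultures in 5 of 6 same-numbered pairs and lower in Psmb8 than in Psmb5 cultures in 6 of 6. Its lowest, median and highest values were 1.25, 3.23 and 6.98 CPM in mSc, 1.42, 3.69 and 11.7 in Psmb5, and 0.881, 2.77 and 5.83 in Psmb8. The groups overlapped almost completely, because numbers 1, 3 and 6 were the highest libraries and number 2 the lowest in each group. The group means were 3.56 ± 2.23, 5.35 ± 4.35 and 3.05 ± 1.86 CPM (SD, n = 6 each). Within pairs the ratio of Psmb5 to mSc ran from 0.812 in number 4 to 1.94 in number 3. In edgeR's fit this was a log2 fold change of 0.59 (SE 0.54), and 0.52 (SE 0.16) with the replicate number as a block. Psmb8 against Psmb5 stood at -0.73 (SE 0.16) with the block, and Psmb8 against mSc at -0.21 (SE 0.17), with 2 of 6 pairs higher. Without number 3 the blocked Psmb5 value was 0.38, and without numbers 3 and 6, which were high in interferon-stimulated genes, it was 0.42 (SE 0.19). In bulk libraries a smaller number of expressing cells and less RNA in each cell cannot be told apart. Beside Inhba, 10 of 11 activity-regulated genes (Fos, Arc, Npas4 and others) lay above 0 in Psmb5 against mSc with the block, at a median log2 fold change of 0.15. None of the 11 was called and 4 had an unadjusted p under 0.05 (edgeR), beside 6.87% of all genes. In Psmb8 against Psmb5, 0 of the 11 lay above 0 (median -0.10), and in Psmb8 against mSc 5 did (median -0.02). At an unadjusted p under 0.05 there were 2 in each (edgeR), beside 7.64% and 10.7% of all genes. Over all genes, 51.0% lay above 0 in Psmb5 against mSc, 49.9% in Psmb8 against Psmb5 and 50.4% in Psmb8 against mSc. Summed over the 11 genes, mSc libraries held 496 to 1606 CPM, Psmb5 libraries 564 to 1832 and Psmb8 libraries 547 to 1528. The part of these genes in the Inhba values was not tested.

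**Figure D1:**
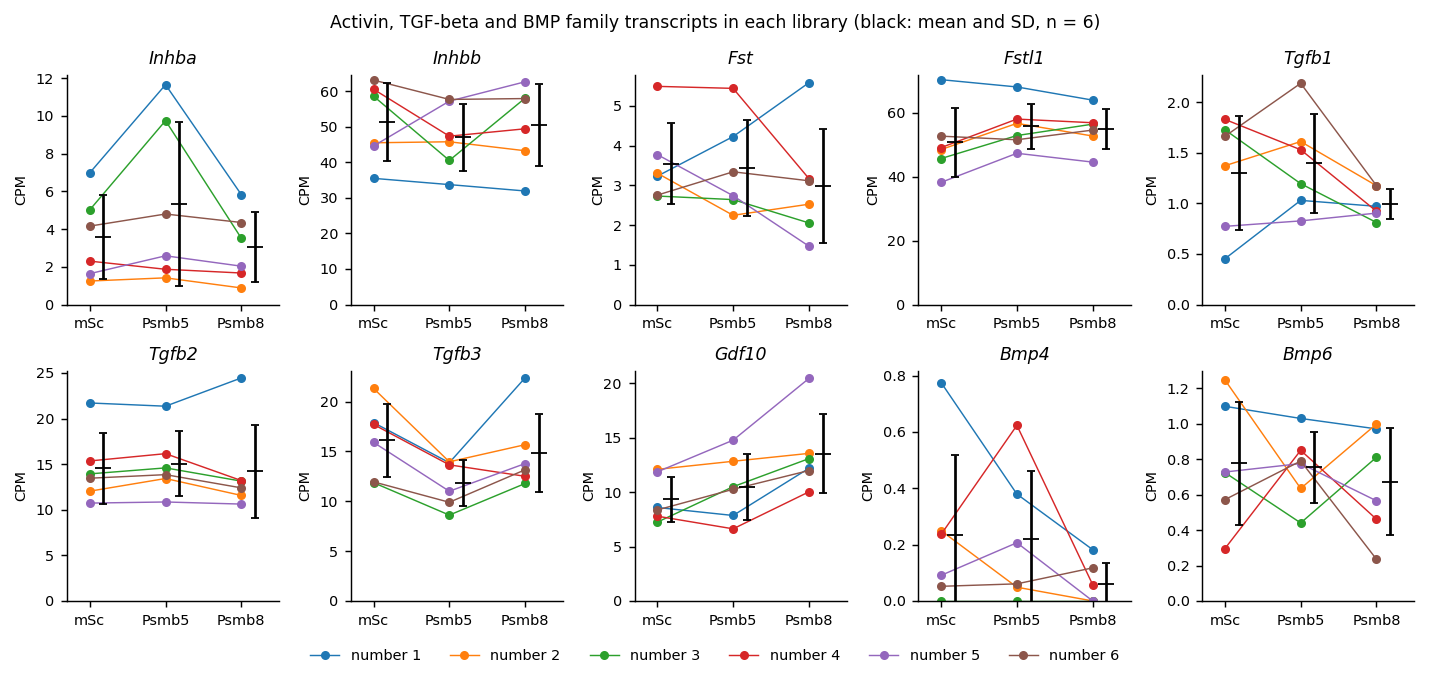
Level of each gene in every library in CPM (vertical axis, from 0) by construct (horizontal axis); lines join libraries of the same replicate number, and black marks give the mean and SD of 6 libraries, with bars cut at 0. Tgfb3 falls from mSc to Psmb5 along all 6 lines and Gdf10 climbs from mSc to Psmb8 along all 6, while number 1 stands highest for Inhba in each construct.

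Inhbb, the subunit of activin B (chr1:119415465-119422248, minus strand), had a lowest, median and highest value of 35.5, 52.0 and 63.1 CPM in mSc, 33.7, 46.5 and 57.7 in Psmb5, and 31.9, 53.7 and 62.6 in Psmb8. Its groups overlapped, and in each of them number 1 was the lowest library. Its blocked log2 fold change was -0.12 (SE 0.08) in Psmb5 and -0.02 (SE 0.08) in Psmb8 against mSc. Fst, follistatin, a secreted protein that traps activins (chr13:114452290-114458951, minus strand), had a median of 3.27 CPM in mSc (2.73 to 5.49), 3.04 in Psmb5 (2.25 to 5.44) and 2.82 in Psmb8 (1.47 to 5.58). Same-numbered Psmb8 to mSc ratios of Fst ran from 0.389 to 1.73, so its pairs pointed both ways. The blocked log2 values of Fst were -0.08 (SE 0.19) and -0.29 (SE 0.19), and the latter ran from -0.55 without number 1 to -0.11 without number 5. Fstl1, a secreted follistatin-like glycoprotein (chr16:37776873-37836514, plus strand), had a median of 48.8 CPM in mSc (38.2 to 70.3), 54.7 in Psmb5 (47.3 to 68.0) and 55.5 in Psmb8 (44.5 to 63.9). Fstl1 was higher than in mSc in 4 of 6 pairs with Psmb5 and in 5 of 6 with Psmb8, with overlapping groups and blocked log2 values of 0.15 (SE 0.05) and 0.13 (SE 0.05). In number 1, where Fstl1 was highest in each group, both ratios were below 1.

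Tgfb3, one of the 3 TGF-beta ligands (ENSMUSG00000021253, chr12:86056745-86079041, minus strand), was lower in Psmb5 than in mSc cultures in all 6 same-numbered pairs. Its lowest, median and highest values were 11.9, 16.8 and 21.3 CPM in mSc, 8.62, 12.3 and 14.0 in Psmb5, and 11.8, 13.5 and 22.4 in Psmb8. The ranges overlapped, since the lowest mSc libraries, numbers 3 and 6, stood below the highest Psmb5 libraries, numbers 1 and 2. The means were 16.1 ± 3.70, 11.8 ± 2.32 and 14.9 ± 3.91 CPM (SD, n = 6 each). The pair ratios of Psmb5 to mSc were close to one another, from 0.655 to 0.828, and the log2 fold change was -0.44 (SE 0.18 without and 0.09 with the block). With each number left out in turn it stayed between -0.47 and -0.40. Psmb8 libraries were higher than Psmb5 libraries in 5 of 6 pairs, at 0.33 (SE 0.09) with the block, and stood at -0.11 (SE 0.09) against mSc. Both values depended on number 1, which held the highest Psmb8 library. Psmb8 against Psmb5 ran from 0.24 without number 1 to 0.42 without number 4. Psmb8 against mSc ran from -0.21 without number 1 to -0.04 without number 4. Markers of inhibitory neurons moved in the same direction as Tgfb3 in 2 of these contrasts. Of 9 tested with the block, 2 lay above 0 in Psmb5 against mSc (median -0.06) and 9 in Psmb8 against Psmb5 (median 0.21). In Psmb8 against mSc, where Tgfb3 lay below 0, 8 of the 9 markers lay above 0 (median 0.26). At an unadjusted p under 0.05 there were 2 in Psmb5 against mSc and 8 in Psmb8 against Psmb5, with 0 called in either (edgeR). Over all genes the shares at that p were 6.87% and 7.64%. The markers summed to 589 to 963 CPM in mSc, 605 to 913 in Psmb5 and 722 to 1268 in Psmb8. Their part in the Tgfb3 values was not tested. The gene body of Tgfb3 overlaps that of Ttll5 on the opposite strand in GRCm38, although they share 0 exonic bases. Ttll5 averaged 23.3, 21.9 and 23.6 CPM in mSc, Psmb5 and Psmb8, a blocked log2 value of -0.09 (SE 0.06) in Psmb5 against mSc. Whether counting used strand is not given in the sources used here, and reads from introns of the pair were not separated.

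Tgfb2, the second of the TGF-beta ligands (chr1:186622792-186705989, minus strand) had a median of 13.7 CPM in mSc (10.7 to 21.7), 14.2 in Psmb5 (10.9 to 21.4) and 12.8 in Psmb8 (10.6 to 24.5). In each group number 1 lay far above the rest of the Tgfb2 libraries and number 5 was lowest, and the groups overlapped. The blocked log2 values of Tgfb2 were 0.05 (SE 0.07) and -0.05 (SE 0.07) for Psmb5 and Psmb8 against mSc, the smallest standard errors after those of Fstl1. Tgfb1, the third (chr7:25687002-25705077, plus strand), was low, with a median of 1.52 CPM in mSc (0.452 to 1.83), 1.36 in Psmb5 (0.827 to 2.19) and 0.947 in Psmb8 (0.811 to 1.18). Its 6 Psmb8 libraries lay within the range of mSc. Its blocked log2 values were 0.10 (SE 0.21) in Psmb5 and -0.37 (SE 0.23) in Psmb8 against mSc. The latter ran from -0.54 without number 1 to -0.21 without number 3. Psmb8 against Psmb5 stood at -0.47 (SE 0.23), lower in 5 of 6 pairs. The 103 counts summed over the Psmb8 libraries limit the precision.

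Gdf10, a BMP-related ligand also called BMP3b (ENSMUSG00000021943, chr14:33923587-33937983, plus strand), was higher in Psmb8 than in both other groups in all 6 same-numbered pairs. Its lowest, median and highest values were 7.25, 8.48 and 12.1 CPM in mSc, 6.63, 10.4 and 14.8 in Psmb5, and 10.0, 12.6 and 20.5 in Psmb8. The mSc and Psmb8 ranges overlapped: mSc numbers 2 and 5 exceeded the lowest Psmb8 library, number 4. The means were 9.33 ± 2.11, 10.5 ± 3.03 and 13.6 ± 3.59 CPM (SD, n = 6 each). The Psmb8 to mSc ratio ran from 1.12 to 1.81 with a geometric mean of 1.45, and the log2 fold change was 0.54 (SE 0.20 without and 0.09 with the block). It was 0.48 without number 5, which held the highest library, and ranged from 0.48 to 0.62 as each number was left out. Without numbers 3 and 6 together it was 0.47 (SE 0.11). Against Psmb5 the Psmb8 value was 0.38 (SE 0.09), and Psmb5 stood at 0.16 (SE 0.09) against mSc with 4 of 6 pairs higher. Markers of inhibitory neurons lay mostly above mSc in Psmb8 cultures as well. Of 10 such markers 9 were tested, and 8 of these 9 lay above 0 against mSc with a median of 0.26 in the blocked fit. Of the 9, 6 had an unadjusted p under 0.05, beside 10.7% of all genes, and 0 were called (edgeR). In Psmb8 against Psmb5, 9 of 9 lay above 0, as given for Tgfb3. The medians of their summed level were 796, 725 and 767 CPM in mSc, Psmb5 and Psmb8, and their part in the Gdf10 values was not tested.

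**Figure D2:**
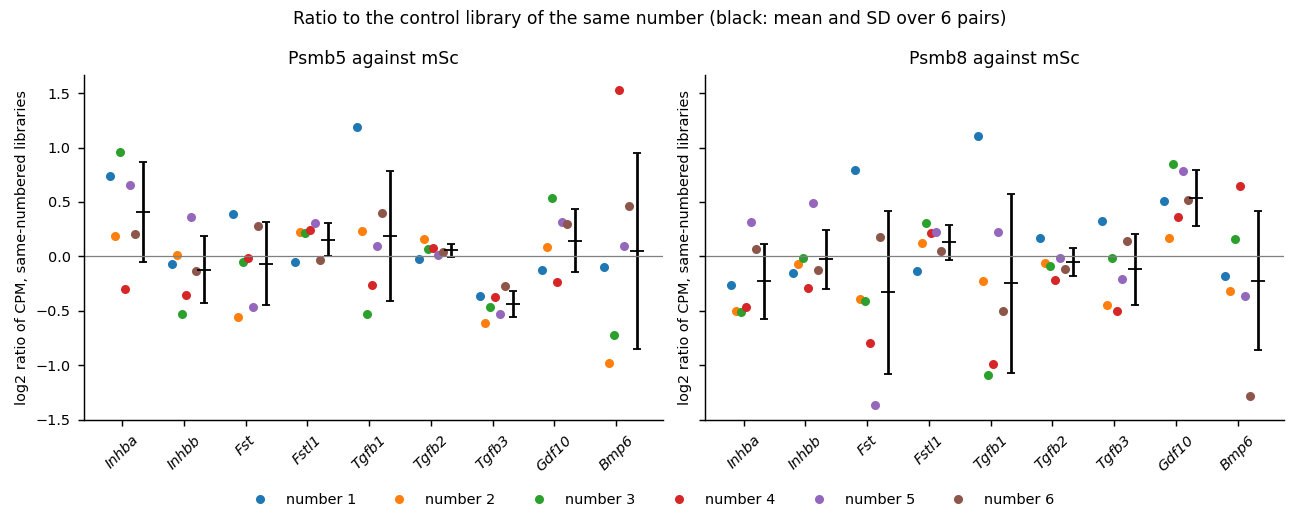
Log2 ratio of CPM to the mSc library of the same replicate number (vertical axis) for the 9 tested genes (horizontal axis), with Psmb5 on the left and Psmb8 on the right; coloured points are single pairs and black marks the mean and SD of 6 pairs. All 6 Tgfb3 points lie below 0 in Psmb5 and all 6 Gdf10 points above 0 in Psmb8, while Tgfb1, Fst and Bmp6 spread to both sides.

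Bmp4 and Bmp6, ligands of the BMP branch, were barely expressed. Bmp6 (chr13:38345107-38500302, plus strand) had a median of 0.726 CPM in mSc (0.295 to 1.25), 0.783 in Psmb5 (0.440 to 1.03) and 0.688 in Psmb8 (0.235 to 0.999). The groups overlapped and the blocked log2 values of Bmp6 were -0.02 (SE 0.28) and -0.20 (SE 0.29). Of its exonic bases, 224 (5.74%) lie also in exons of Txndc5 on the other strand. Bmp4 (chr14:46383520-46390669, minus strand) had 23 counts over the 6 mSc libraries, 24 in Psmb5 and 6 in Psmb8, with 0 to 12 counts in a library. Most Bmp4 libraries were at or near the 3 counts taken as a floor, so no fold is given. The Bmp4 libraries above that floor were mSc numbers 1, 2 and 4 and Psmb5 numbers 1, 4 and 5. Oligodendrocyte lineage markers (8 genes) were highest in numbers 1 and 4 too, at 848 and 872 CPM against 284 to 598 in the other numbers, and their part was not tested.

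A gene was called at a Benjamini-Hochberg adjusted p under 0.05 over the 15671 genes tested with edgeR's quasi-likelihood test. Without the block 0 of the 9 tested ligands and antagonists were called in each contrast. The shares of all genes called were 0.00638% in Psmb5 against mSc, 0.00638% in Psmb8 against mSc and 0.0128% in Psmb8 against Psmb5. At an unadjusted p under 0.05 there were 1 (Tgfb3), 1 (Gdf10) and 0 of the 9, beside 0.944%, 2.17% and 1.33% of all genes. DESeq2 and limma-voom without the block also called 0 in each contrast. With the block, 0 of the 9 were called in Psmb5 against mSc (background 0.00638%), 1 in Psmb8 against mSc, Gdf10 (background 0.325%), and 0 in Psmb8 against Psmb5 (background 0.0383%). The genes were chosen with these contrasts in view, so nothing is read from the counts. The comparisons with mSc share the mSc libraries.

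The rest of the pathway was set beside them in lists drawn up by role, with earlier results of these data known. In 6 lists of receptors, SMADs, targets, other ligands, antagonists and latency or processing factors, 92 of 116 genes were tested. None was called by edgeR in any contrast, with or without the block, nor by DESeq2 or limma-voom. Without a low-count filter and with the block, edgeR called 2 of 114 in each contrast. The share of all genes called in that run is not given here, so nothing is read from this count. With the block, 6, 14 and 8 of the 92 had an unadjusted p under 0.05 in Psmb5 against mSc, Psmb8 against mSc and Psmb8 against Psmb5. Over all genes the shares were 6.87%, 10.7% and 7.64%. The medians over the 92 genes were 0.00, 0.01 and -0.01 on the log2 scale, and those over all genes lay within 0.01 of 0.

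Receptors that the ligands above use were close to mSc in both overexpression groups. Of 16 receptors and co-receptors tested, 11 lay above 0 in Psmb5 and 12 in Psmb8 against mSc with the block, with medians of 0.02 and 0.07. Rgma, a BMP co-receptor and guidance molecule, had the smallest p of the list in Psmb8 cultures: it averaged 86.1 ± 11.2 CPM against 94.9 ± 9.82 in mSc (SD, n = 6), lower in 6 of 6 pairs. Its log2 value was -0.14 (SE 0.04, edgeR adjusted p = 0.171 with the block). Acvr1c, a type I receptor also called ALK7, had the smallest p in Psmb5 cultures, at 0.23 (SE 0.09, edgeR adjusted p = 0.624 with the block) and higher in 4 of 6 pairs. Tgfbr3, betaglycan, which presents TGF-beta2 and binds inhibin, had the smallest p in Psmb8 against Psmb5, at 0.23 (SE 0.10, edgeR adjusted p = 0.605).

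Inside the cell, 17 SMADs and regulators had medians of 0.00 and -0.03 in Psmb5 and Psmb8 against mSc. Ppm1a, a phosphatase that acts on SMAD2 and SMAD3, averaged 134 ± 4.09 CPM in Psmb8 and 123 ± 7.21 in mSc (SD, n = 6), higher in 6 of 6 pairs. Its log2 value of 0.13 (SE 0.03) was not called (edgeR adjusted p = 0.107 with the block). Smad3, which carries activin and TGF-beta signals, was at -0.11 (SE 0.07, edgeR adjusted p = 0.775) in Psmb5 against mSc. The 17 target genes tested had medians of -0.03 and 0.03. Cdkn1a, the cell cycle inhibitor p21, had the smallest p among them in both comparisons with mSc, at 0.14 in each (SE 0.06, edgeR adjusted p = 0.677 in Psmb5 and 0.427 in Psmb8). Ccn2, connective tissue growth factor, was at 0.23 (SE 0.11, edgeR adjusted p = 0.644) in Psmb8 against Psmb5.

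Outside the cell, 11 other ligands had medians of -0.09 and -0.05, 15 antagonists -0.01 and 0.06, and 16 latency and processing factors 0.08 and -0.04, in Psmb5 and Psmb8 against mSc. Bmp7 averaged 10.2 ± 2.08 CPM in Psmb5 and 8.19 ± 1.82 in mSc (SD, n = 6), higher in 5 of 6 pairs, with a log2 value of 0.31 (SE 0.10) that was not called (edgeR adjusted p = 0.603). Crim1, a transmembrane protein that binds BMPs, was lower in Psmb5 in 6 of 6 pairs, at 135 ± 10.6 against 147 ± 8.37 CPM (SD, n = 6). Its log2 value was -0.13 (SE 0.04, edgeR adjusted p = 0.553). Lefty2, an inhibitor of Nodal, was at -1.04 (SE 0.40, edgeR adjusted p = 0.344) in Psmb8 against mSc, at means of 0.296 and 0.615 CPM. Chordin (Chrd), which traps BMPs, was at -0.21 (SE 0.08, edgeR adjusted p = 0.334), and Bmp1, the protease that cleaves chordin, at -0.15 (SE 0.05, edgeR adjusted p = 0.275), each lower in 5 of 6 pairs of Psmb8 and mSc. Tll1, a related protease, was at 0.29 (SE 0.15, edgeR adjusted p = 0.751) in Psmb5 against mSc and at -0.32 (SE 0.15, edgeR adjusted p = 0.644) in Psmb8 against Psmb5. In the latter contrast Nog, the BMP antagonist noggin, was at 0.19 (SE 0.08, edgeR adjusted p = 0.629), Bmp7 at -0.20 (SE 0.10, edgeR adjusted p = 0.702) and Ppm1a at 0.08 (SE 0.03, edgeR adjusted p = 0.553).

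**Figure D3:**
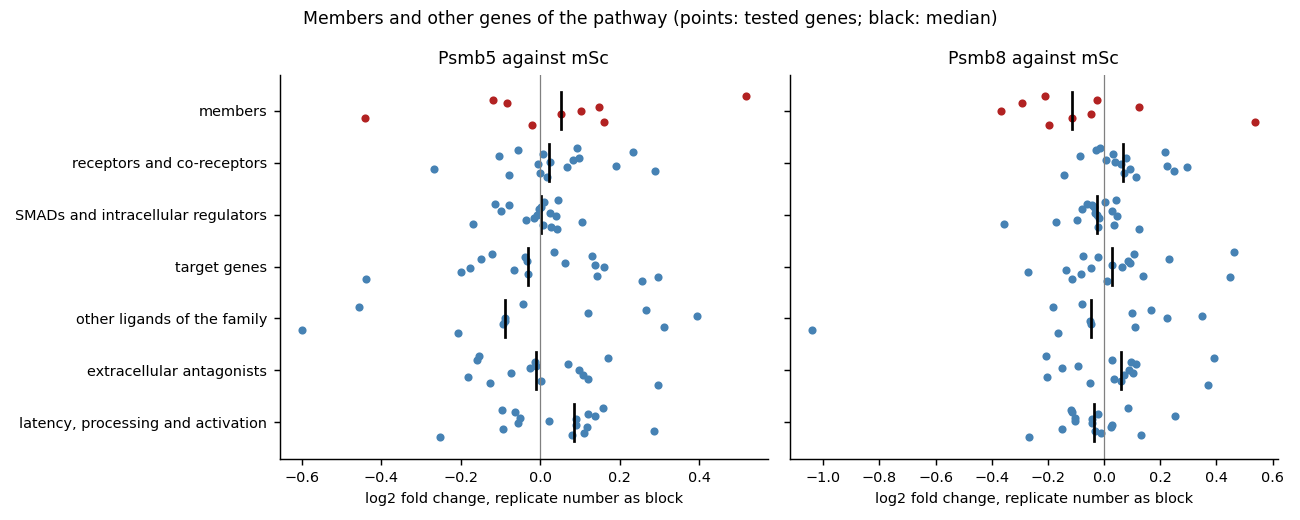
Log2 fold change with the replicate number as a block (horizontal axis) of the 9 tested ligands and antagonists (red) and of the 92 tested genes of 6 pathway lists (blue), in Psmb5 (left) and Psmb8 (right) against mSc; each point is a gene and black bars are medians. The medians of the 6 pathway lists lie between -0.09 and 0.08, and none of the blue points was called.

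The replicate number held a larger share of the log2 CPM variance than the construct in each of the 9 tested. Libraries were paired by this number when the genes were chosen, so the values by number are not independent of that choice. There are 6 numbers and 3 constructs, so the shares are not on an equal footing, and the number takes more by design. In edgeR's test of the number with the construct in the fit, 8 of the 9 tested ligands and antagonists were called, against 64.3% of all genes tested, so such calls were the rule in these libraries. Inhba varied most: it averaged 8.15 CPM in number 1, 6.09 in number 3, 4.44 in number 6 and 1.18 in number 2, a 6.90-fold span (edgeR adjusted p = 1.75e-08). The number accounted for 88.1% of the variance of its log2 CPM and the construct for 6.52%. Numbers 1, 3 and 6 also had the highest summed activity-regulated genes, 991, 1655 and 1435 CPM, and number 2 the lowest, 536 CPM. The match was not complete, since Inhba was highest in number 1 and the activity-regulated genes in number 3, and the part of these genes was not tested.

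Tgfb2 differed mainly between numbers, with number 1 far above the others. It averaged 22.5 CPM in number 1 and 10.7 in number 5, and the number held 94.3% of its variance (edgeR adjusted p = 6.04e-08). Number 1 is also where astrocyte markers stood at 4548 CPM, and the Tgfb2 values of the other 5 numbers lay between 10.7 and 14.9 CPM. Fstl1 was highest in number 1 as well, at 67.4 CPM against 43.3 in number 5 (edgeR adjusted p = 8.75e-06, 78.6% of variance). Inhbb went the other way, with 33.7 CPM in number 1 and 59.6 in number 6 (edgeR adjusted p = 0.000111, 75.5% of variance). Vascular and fibroblast markers (9 genes, 47.0 CPM against 16.5 to 30.8) and inhibitory neuron markers (1032 CPM against 640 to 958) were highest in number 1 too, and the part of these cells and of astrocytes was not tested.

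Gdf10 was highest in number 5 (15.7 CPM) and lowest in number 4 (8.15), with 57.5% of its variance between numbers and 31.1% between constructs (edgeR adjusted p = 3.01e-05 for the number). Inhibitory neuron markers ran otherwise by number, at 708 CPM in number 5 and 801 in number 4. They were highest in number 1 (1032 CPM) and lowest in number 6 (640 CPM). Tgfb3 was highest in number 1 (18.1 CPM) and lowest in number 3 (10.8), with 56.9% between numbers and 27.9% between constructs (edgeR adjusted p = 0.000217). In the other 7 tested genes the construct held at most 10.6% of the variance. Fst ran from 2.48 CPM in number 3 to 4.70 in number 4 (edgeR adjusted p = 0.0109). Tgfb1 ran from 0.818 CPM in number 1 to 1.68 in number 6 (edgeR adjusted p = 0.0364), and DESeq2 did not call it (adjusted p = 0.128). Bmp6 was the exception, at 0.532 to 1.03 CPM (edgeR adjusted p = 0.161).

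**Figure D4:**
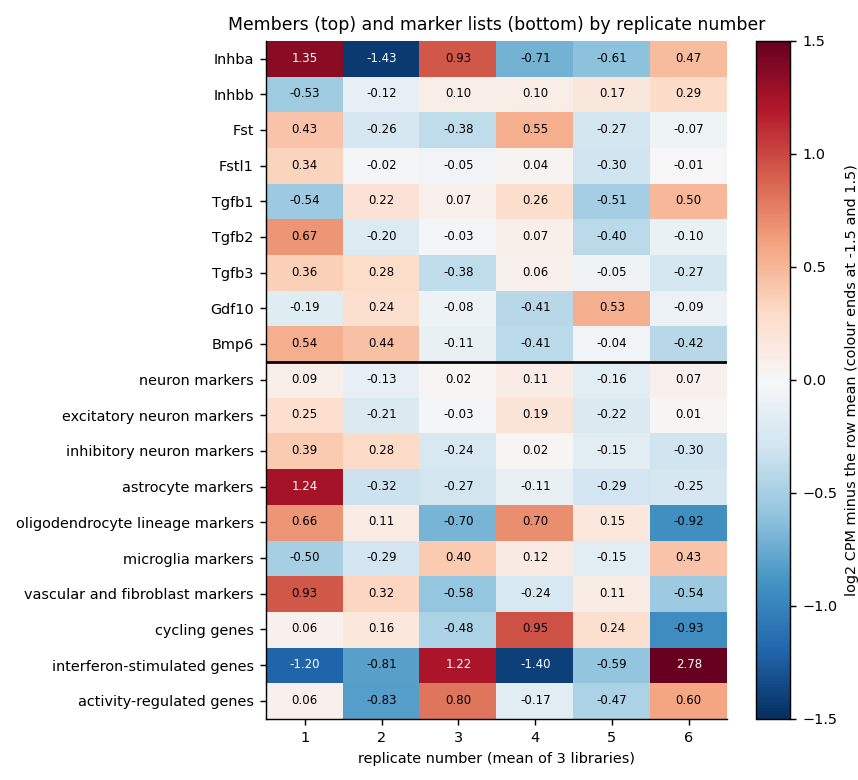
Mean over the 3 libraries of each replicate number (columns) minus the row mean, in log2 CPM, for the 9 tested ligands and antagonists (above the line) and for summed marker lists (below); red is higher and blue lower, and colours end at -1.5 and 1.5. Inhba is highest in number 1 (mean 8.15 CPM) and lowest in number 2 (1.18 CPM), the astrocyte list stands out in number 1 (4548 CPM) and the interferon-stimulated list in number 6 (301 CPM).

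Among the other pathway genes 72 of 92 were called by the number, against 64.3% of all genes (edgeR, adjusted p from 2.18e-11 to 5.73e-07 for the genes named here). Of the targets 14 of 17 were called, with Junb, a transcription factor gene, at 153 CPM in number 3 and 69.8 in number 2, and Ccn1, a matricellular protein, at 38.6 CPM in number 3 and 9.96 in number 4. Of the SMADs and regulators 14 of 17 were called. Smad7, the inhibitory SMAD, ran from 19.1 CPM in number 2 to 38.5 in number 3, and Tgif1, a SMAD corepressor, from 7.26 CPM in number 1 to 23.8 in number 4. Of the receptors 11 of 16 were called, with Acvr1c at 26.3 CPM in number 6 and 10.7 in number 2. Bmpr1b, a BMP type I receptor, stood at 22.5 CPM in number 1 and 9.93 in number 3. Number 1 was thus the highest for Tgfb2, Fstl1 and Bmpr1b, and number 2 the lowest for Inhba, Junb, Smad7 and Acvr1c.

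Per kilobase of exon, the activin B subunit and Fstl1 were the most abundant of the 10 transcripts in mSc cultures. Inhbb stood at 12.1 ± 2.59 CPM per kb and Fstl1 at 10.3 ± 2.19 (SD, n = 6), and these 2 overlapped. Tgfb3 (4.76 ± 1.09), Tgfb2 (2.51 ± 0.666) and Gdf10 (1.79 ± 0.405) followed in CPM per kb, each overlapping its neighbour, with no overlap between Fstl1 and Tgfb3. No library of Fst (0.773 ± 0.224) reached the lowest Gdf10 library on this scale. Fst, Inhba (0.557 ± 0.348), Tgfb1 (0.258 ± 0.112), Bmp6 (0.199 ± 0.0891) and Bmp4 (0.104 ± 0.126) each overlapped the next in order. Among receptors, Acvr1b and Acvr2a, a type I and a type II activin receptor, stood highest at 49.1 and 23.5 CPM per kb, while the activin receptors Acvr2b (2.03) and Acvr1c (1.74) lay below Rgma (17.1), Bmpr2 (12.2), Rgmb (10.7), Acvr1 (9.48) and Bmpr1a (8.69). Tgfbr1 and Tgfbr2, the 2 receptors of the TGF-betas, stood at 1.51 and 0.510 CPM per kb. Exon lengths come from GENCODE's GRCm38 annotation and may differ from those of the counted annotation.

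**Figure D5:**
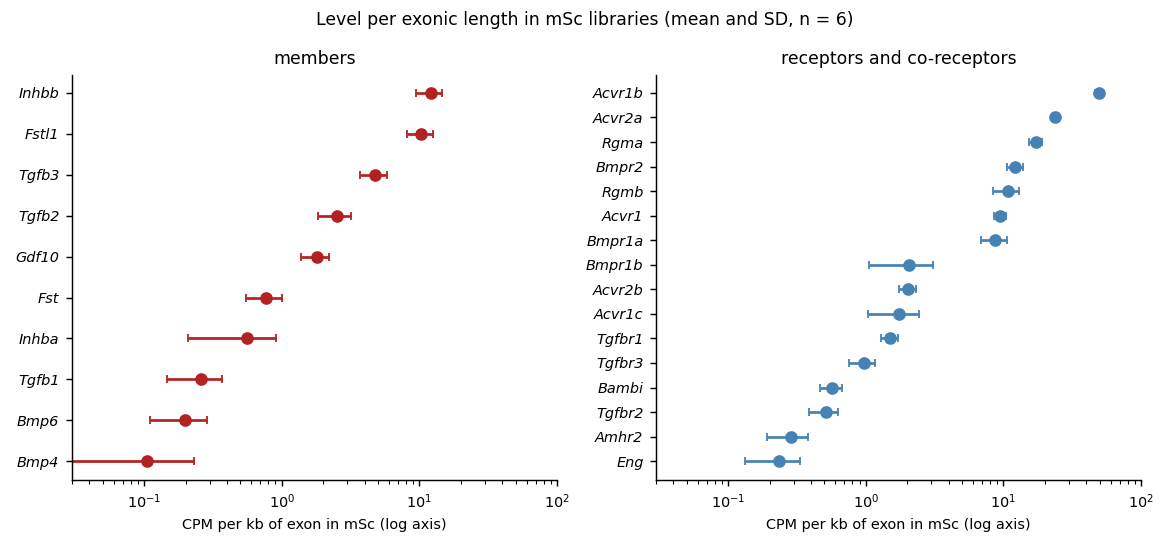
Level in CPM per kilobase of exon (horizontal axis, log scale) in mSc libraries, mean and SD of 6, for the 10 ligands and antagonists (left) and for tested receptors and co-receptors (right). Inhbb and Fstl1 lie above 10 and Bmp4 near 0.1, and Acvr1b leads the receptors at 49.1.

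For each gene the 3 genes with the most similar pattern were found among 13088 others by Pearson's r of log2 CPM over the 18 libraries. These libraries share 6 numbers, and most genes differ between numbers, so the values describe the same libraries and have no test. Inhba was nearest to Pcdh8, a protocadherin (0.95), Gria2, an AMPA receptor subunit (0.94), and Itprid2 (0.93). Tgfb2 was nearest to Abcd2, a peroxisomal transporter (0.96), Hsdl2 (0.96) and AI464131 (0.95), and Fstl1 to the chemokine gene Cxcl14 (0.92), Sppl2a (0.91) and Cnih4 (0.90). Tgfb3 was nearest to Slc32a1, the vesicular GABA transporter (0.89), St5 (0.87) and Tspan14 (0.86). Gdf10 was nearest to Samd10 (0.88), Cpne2 (0.84) and Fbln7 (0.81), and Inhbb to Dusp7 (0.89), Jade2 (0.88) and Napg (0.87). The low genes Fst (Hey1, 0.80), Tgfb1 (Jtb, 0.80) and Bmp6 (Abhd18, 0.79) had no neighbour above 0.80. After the mean of each number was subtracted, the nearest genes were others: Zfc3h1 (0.91) for Inhba, Cntn2 (0.87) for Tgfb3 and Hunk (0.90) for Gdf10. What remains still holds the construct differences by which these 3 genes were chosen, so these neighbours have no test either.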

How the data were processed

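The authors deposited 1 table of raw counts per Ensembl gene, with a column per library and no pooling. The submitters' processing notes name STAR 2.4, DESeq2 and the builds GRCm39 and mm10 with no role. The sources used here do not give the counter, its strand setting or the annotation. Symbols were given to 42462 of 43629 IDs. Coordinates and lengths are GENCODE's for GRCm38.

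The 10 genes and the pathway and marker lists were chosen with earlier results of these data known. Per pathway list and contrast the text names the genes called with the block or, with none called, the gene with the smallest p; by number, from the 3 called genes with the smallest p. Not every such gene is reported here. Counts were fitted with edgeR 4.0.16 (R 4.3.3): filterByExpr, TMM scaling, the quasi-likelihood test on 18 libraries with the construct as factor, and Benjamini-Hochberg adjustment over 15671 genes. CPM use TMM-scaled totals. Each SE given for edgeR was calculated from its test, as the absolute log2 fold change divided by the square root of the F statistic. The spread and counting error at 15337511 to 21074229 counts limit low genes. The test was run on simulated data in which only genes with higher counts were changed. That run does not cover low genes such as Tgfb1 and Bmp6, and its outcome is not given here.

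Same-numbered libraries were paired: deviations from group means correlated at r 0.52 to 0.80 in 18 of 18 same-numbered pairs, against a mean of -0.14 over 90 others. The fit with the replicate number as a block is therefore given too; the biological coefficient of variation was 17.9% without it and 5.94% with it. The number itself was tested in that fit. Alternatives were DESeq2 1.42.0, voom of limma 3.58.1, DESeq2's size factors, other low-count filters, fits of 2 groups, library sizes without Psmb5 and Psmb8, and libraries or numbers left out.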

Additional observations from a re-analysis of the deposited data

Results flagged for a closer look

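In 30 sets of 6 libraries (10 genes in 3 groups), 4 had 1 library far above the other 5 (Dixon's ratio above 0.625, which chance exceeds in about 1 of 20 sets). Tgfb2 stood at 24.5 CPM and Tgfb3 at 22.4 CPM in Psmb8 number 1. Gdf10 stood at 20.5 CPM in Psmb8 number 5. Without that number the blocked Gdf10 log2 fold change of Psmb8 against mSc was 0.48, against 0.54 with all libraries. Bmp4 stood at 0.775 CPM, or 12 counts, in mSc number 1.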

How the results depend on the processing

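The block by replicate number decided which of the 9 tested ligands and antagonists were called. With no block, 0 were called in any contrast in every alternative run. With the block, Psmb8 against mSc gave 1, Gdf10, in edgeR, DESeq2, limma-voom, with DESeq2's size factors, no low-count filter, a mean of 5 CPM or more, or 2 groups only. Leaving out 1 number, with the block, gave 0 to 1: Gdf10 was called without number 1, 2 or 4 and was not called without 3, 5 or 6. In Psmb5 against mSc, Tgfb3 was the 1 called by DESeq2 and in the fit of 2 groups, and 2, Inhba and Tgfb3, were called with no low-count filter. In Psmb8 against Psmb5, Inhba was the 1 called by limma-voom, 3 (Inhba, Tgfb3 and Gdf10) were called with no low-count filter, and leaving out 1 number gave 0 to 1 (Inhba without number 4). Over all genes, blocked DESeq2 called 13 of 12377 in Psmb5 against mSc, 134 of 12377 in Psmb8 against mSc and 27 of 10657 in Psmb8 against Psmb5. Blocked limma-voom called 1, 62 and 7 of 15671. Shares for the other alternatives are not given here. The genes were chosen with these contrasts in view, so nothing is read from the counts. Of 114 pathway genes, 2 were called in each contrast with the block and no low-count filter: Fn1 and Gdf15, Fstl5 and Bmp1, and Tgif1 and Fn1, in the order of Psmb5 against mSc, Psmb8 against mSc and Psmb8 against Psmb5. By number, 5 of 5 tested ligands and antagonists were called at a mean of 5 CPM or more, where fewer genes are tested, and 57 to 76 pathway genes over all alternatives. The causes of the other changes were not tested. The log2 fold change kept its sign in 37 of 37 alternatives for Inhba in Psmb5 against mSc, in 39 of 39 for Tgfb3 in Psmb5 against mSc and in 39 of 39 for Gdf10 in Psmb8 against mSc. These 3 genes were chosen by such differences and the alternatives refit the same libraries, so the kept signs are no support. Counting error limits Bmp4, Bmp6 and Tgfb1, and the meaning of the replicate number is not given.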

Other observations

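Several family members outside the 10 genes were expressed in these cultures. Inha, the inhibin alpha subunit that pairs with the activin subunits, stood at 39.9 CPM per kb of exon in mSc, above Inhbb at 12.1. Gdf11 stood at 4.21, Gdf15 at 3.27, Bmp3 at 3.19, Bmp2 at 2.46 and Bmp7 at 2.04 CPM per kb. Gdf15, a stress-induced cytokine, differed between replicate numbers, from 4.13 CPM in number 5 to 19.5 CPM in number 4 (edgeR adjusted p = 3.45e-07). Of 24 other ligands listed, 11 had enough counts to be tested, and Nodal, Lefty1, Bmp5 and Bmp15 were among those that did not.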
